A study of Mus musculus with 8 samples.

Results

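A set of 8 genes was followed that mark alternatively activated macrophages, the macrophage state that the cytokines IL-4 and IL-13 induce. They are Retnla, Chi3l3, Arg1, Mrc1, Cd163, Clec10a, Il4ra and Msr1. The genes were given by name. They were chosen from earlier results on these same arrays, among them a low Retnla value in high regeneration, so the difference between the groups is given here as a description of these genes and not as a test of them. Of the 8 genes, 7 were measured by array rows that the platform annotation pairs with a single symbol, out of 20259 genes in all. The only row that names Clec10a also names its neighbour in the lectin family, Mgl2, and cannot be assigned to either.

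The arrays measured RNA from whole-skin biopsies of early wound scars in mice of 2 strains. The high regeneration group held 4 mice of a strain labelled with a high level of regeneration, by the series title the formation of new hair follicles in wounds, and the low regeneration group held 4 mice of a strain labelled low. The sources used here name neither the strains nor the ages, sexes or day of biopsy. The arrays are called high 1 to high 4 and low 1 to low 4 after the numbers in their labels. All values below are log2 expression values of the deposited table, so that a difference of 1 is a doubling, and a gene is called when its adjusted p in limma over all 20259 genes is under 0.05.

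Alternative activation starts when IL-4 or IL-13 binds a receptor that contains the Il4ra chain, which activates the transcription factor Stat6. In mouse macrophages Stat6 then turns on Retnla, Chi3l3 and Arg1, and raises surface lectins and scavenger receptors such as Mrc1 and Clec10a. In skin wounds such macrophages are known for their part in the shift from inflammation to repair and for effects on collagen. Several of these genes are also used by other cells, Arg1 by keratinocytes and Retnla by cells of fat tissue.

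Arrays low 3 and low 4 stood apart. The mean over 28 skeletal muscle genes reached 9.25 in the one and 9.90 in the other, with 6.67 to 6.87 elsewhere, and the mean over 16 adipocyte genes reached 7.89 and 7.98, with 7.03 to 7.32 elsewhere. The Y-linked gene Eif2s3y was high in high 4, low 2 and low 4, and Xist, expressed from an inactive X, was lowest there, with 6.11 (high 4), 9.60 (low 2) and 10.05 (low 4) beside 12.74 to 12.93 elsewhere. These arrays were not alike: Eif2s3y was at 7.67 in low 2 and 7.57 in low 4, near the 7.70 of high 4. Their Xist values, however, lay well above that of high 4, and the reason was not tested. Results are therefore also given without low 3 and low 4, and without high 4, low 2 and low 4. Macrophage RNA was present in all scars: the general markers Adgre1, Cd68 and Csf1r lay between 9.57 and 10.96 in every array.

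Retnla was the member with the widest gap between the groups. It encodes a small secreted protein of the resistin family, which mouse macrophages release after IL-4. Its log2 values were 4.56, 5.49, 4.50 and 4.49 in high 1 to high 4, against 5.57, 6.90, 8.74 and 7.47 in low 1 to low 4. Every high array lay below every low array, but high 2 and low 1 lay close together, and the low arrays were spread far more widely than the high arrays. The means were 4.76 ± 0.49 in high regeneration and 7.17 ± 1.31 in low regeneration (SD, n = 4 each), a fitted difference of -2.41 ± 0.57 (SE) or 5.31-fold lower in high regeneration.

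The values of the high arrays were below the median of all rows of their array (6.18 to 6.29), and so was that of low 1 (median 6.21). At such levels signal and background are hard to separate without detection calls. The size of the Retnla difference moved with the arrays used. Without low 3 and low 4 it was -1.47, and with the muscle list mean as a covariate -1.59. Without high 4, low 2 and low 4 it was -2.30. In whole tissue, fewer cells of a type and less RNA per cell cannot be told apart.

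The promoter of Retnla is shown because Stat6 is the factor through which IL-4 acts on this gene, beside that of Retnlg, a relative on the same chromosome. The windows hold the 250 bases before the gene start, on the + strand of GRCm38.p6 as RefSeq gives it, at chr16:48842359-48842608 for Retnla and chr16:48872358-48872607 for Retnlg. Capitals mark the motif TTCNNNNGAA, the spacing that Stat6 prefers, which reads the same on both strands.
Retnla: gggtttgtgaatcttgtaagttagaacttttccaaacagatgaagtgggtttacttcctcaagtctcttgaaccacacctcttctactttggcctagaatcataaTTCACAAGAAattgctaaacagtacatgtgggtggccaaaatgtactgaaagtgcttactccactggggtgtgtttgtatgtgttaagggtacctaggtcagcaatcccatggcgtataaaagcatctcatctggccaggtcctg
Retnlg: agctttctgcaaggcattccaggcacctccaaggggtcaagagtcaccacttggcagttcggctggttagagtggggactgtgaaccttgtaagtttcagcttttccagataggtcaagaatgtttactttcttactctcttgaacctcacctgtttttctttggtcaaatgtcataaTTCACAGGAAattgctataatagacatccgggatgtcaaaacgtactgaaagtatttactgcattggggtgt
The match begins 145 bases before the start of Retnla and 72 bases before the start of Retnlg. Of the 8 members, 5 have a promoter in the table used (Retnla, Chi3l3, Mrc1, Cd163 and Il4ra), and only the Retnla window holds the motif. Of all 32851 promoter windows of this length, 5.85% hold it. A match of letters is a description and does not show that Stat6 binds there.

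**Figure D1:**
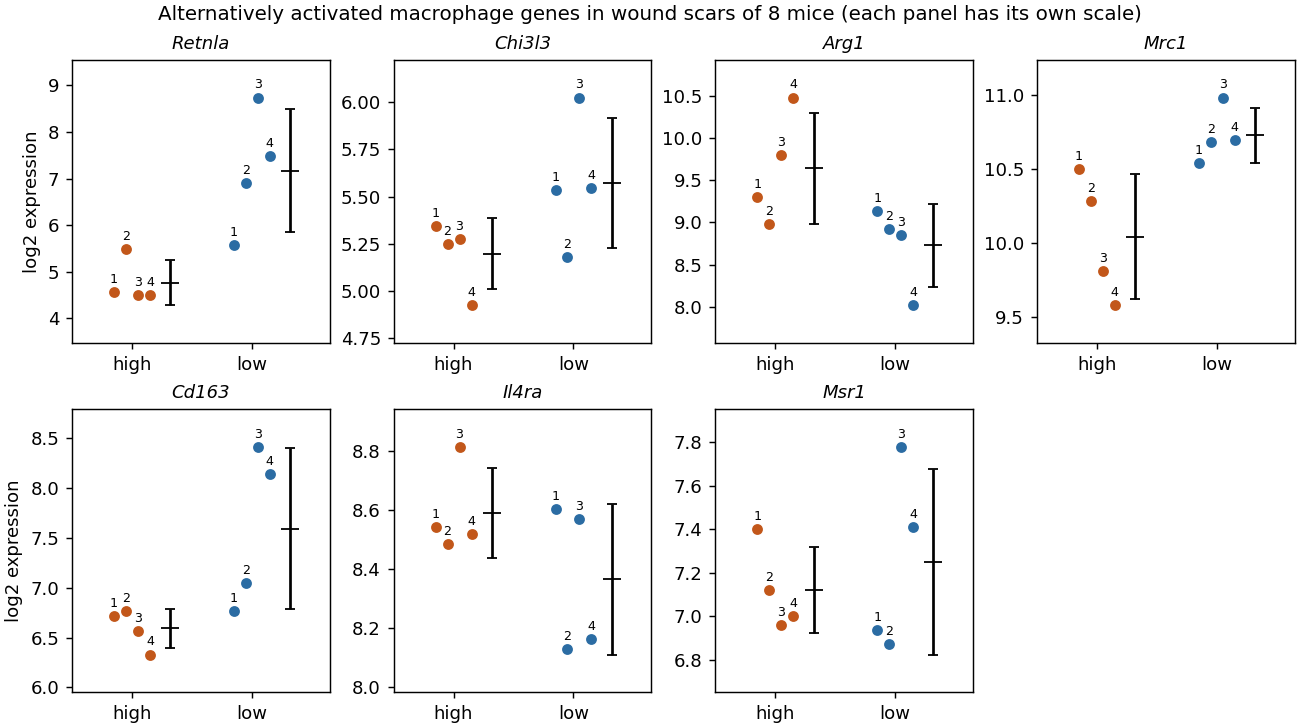
Log2 expression of the 7 measured genes in each array, high regeneration on the left and low regeneration on the right of each panel. Points are arrays with their label number, and bars show the mean ± SD of 4 arrays. Retnla and Mrc1 are the genes whose groups do not overlap, and low 3 is the highest array for Retnla, Chi3l3, Mrc1, Cd163 and Msr1.

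Among the other secreted or enzymatic products, Chi3l3 had a slightly lower and Arg1 a higher mean in high regeneration, both with overlapping groups, and neither was called. Chi3l3, a chitinase-like lectin that the annotation writes Chil3, had 5.35, 5.25, 5.27 and 4.92 in the high arrays and 5.54, 5.18, 6.02 and 5.55 in the low arrays. The groups overlapped through low 2, and all values lay below the array medians of 6.09 to 6.29. The fitted difference was -0.37 ± 0.17 (SE). It was -0.16 without low 3 and low 4, and -0.49 without high 4, low 2 and low 4. Its 3 rows had differences of -0.40, -0.25 and -0.47.

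Arg1, the arginase that turns arginine into ornithine and urea, had 9.30, 8.98, 9.80 and 10.48 in the high arrays, against 9.13, 8.92, 8.85 and 8.02 in the low arrays. High 2 lay below low 1, so the groups overlapped, while high 4 and low 4 were the extremes on either side. The fitted difference was 0.91 ± 0.33 (SE) or 1.88-fold higher in high regeneration. It fell to 0.61 without low 3 and low 4 and to 0.37 without high 4, low 2 and low 4. Arg1 thus had the opposite sign to Retnla in the same arrays. High 4 was the array with the most Arg1, while its Retnla value (4.49) was nearly level with high 3 (4.50) and high 1 (4.56).

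The surface receptors Mrc1 and Cd163 had lower means in high regeneration, and neither was called. Mrc1, the macrophage mannose receptor, had 10.50, 10.28, 9.81 and 9.58 in the high arrays, against 10.54, 10.68, 10.98 and 10.70 in the low arrays. Every high array was below every low array, high 1 and low 1 being the closest, and the high arrays were the more spread. The fitted difference was -0.68 ± 0.19 (SE), or 1.60-fold lower in high regeneration. It was -0.57 without low 3 and low 4, and -0.56 without high 4, low 2 and low 4.

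Cd163, the scavenger receptor for haemoglobin bound to haptoglobin, had 6.71, 6.77, 6.56 and 6.33 in the high arrays, against 6.77, 7.04, 8.41 and 8.14 in the low arrays. Only low 3 and low 4 lay far above the rest, and low 1 was level with high 2. The fitted difference was -1.0 ± 0.34 (SE) over all arrays. It was -0.91 without high 4, low 2 and low 4, and -0.31 without low 3 and low 4. Cd163 thus moved with the muscle and adipocyte signal of those arrays, and the part of other tissue in its difference was not tested.

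Msr1 and Il4ra differed least, and neither was called. Msr1, the class A scavenger receptor, had 7.40, 7.12, 6.96 and 7.0 in the high arrays and 6.94, 6.87, 7.78 and 7.41 in the low arrays. The difference of -0.13 ± 0.20 (SE) was smaller than its error. It became 0.22 without low 3 and low 4, and -0.20 without high 4, low 2 and low 4. Il4ra, the receptor chain through which IL-4 and IL-13 signal, had 8.54, 8.49, 8.82 and 8.52 in the high arrays and 8.60, 8.13, 8.57 and 8.16 in the low arrays. The groups overlapped, with a difference of 0.23 ± 0.13 (SE). This difference was 0.23 without low 3 and low 4, and 0.03 without high 4, low 2 and low 4. The row that names both Clec10a and Mgl2 had 8.33, 8.21, 7.88 and 7.34 in the high arrays and 7.39, 7.52, 8.20 and 7.93 in the low arrays, with no common direction.

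Of the 7 measured genes 1, Retnla, was called lower and 0 were called higher. Over all 20259 genes 2.47% were called lower and 1.86% higher. Groups that did not overlap were found for 2 of the 7 genes, both lower, and 7.29% of all genes had every high array below every low array, while 7.19% had every high array above. The members' median difference was -0.37, against 0.03 over all genes. At an unadjusted p under 0.05 in limma stood 4 of the 7 (Retnla, Arg1, Mrc1 and Cd163) and 4420 of all genes. The members were chosen from earlier results on these same arrays, so these counts and calls describe them and do not test them. The call of Retnla did not hold when any single array other than low 1 was left out. Without high 1 the called member was Mrc1, and without low 1 Retnla and Cd163 were called.

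**Figure D2:**
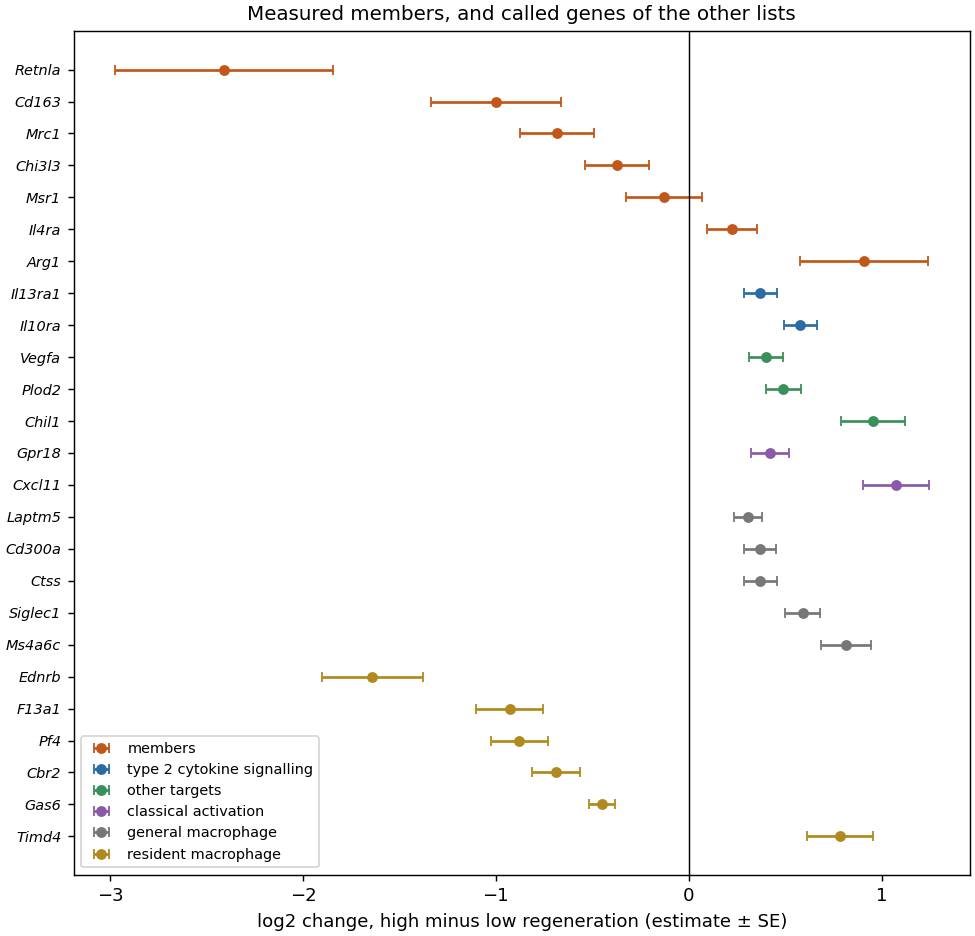
Fitted log2 change (high minus low regeneration, limma) with its SE for the 7 measured members and for the called genes of the other macrophage lists, coloured by list. Retnla, Cd163, Mrc1, Chi3l3 and Msr1 lie left of 0, as do Ednrb, F13a1, Pf4, Cbr2 and Gas6 of the resident macrophage list. Arg1 and Il4ra lie right of 0, as do Timd4 of the resident macrophage list and the called general macrophage genes.

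General macrophage and monocyte genes that were called lay on the higher side. Of 24 measured 5 were higher and 0 lower (1.86% and 2.47% over all genes), and the median difference was 0.22. The 5 higher genes were Ms4a6c, a membrane protein of monocytes (0.81 ± 0.13 SE, adjusted p = 0.0123), Siglec1, a sialic acid receptor that interferon induces (0.59 ± 0.09, adjusted p = 0.0112), Ctss, a lysosomal protease (0.37), Cd300a, an inhibitory receptor (0.37), and Laptm5, a lysosomal membrane protein (0.31). Ms4a6c and Siglec1 were called whichever single array was left out. Ctss lost its call without any single array other than low 4, and Cd300a and Laptm5 without any other than low 1. The defining markers did not pass: Adgre1 differed by 0.11 ± 0.10, Cd68 by 0.22 ± 0.13 and Csf1r by 0.08 ± 0.08. The list mean per array was 9.36 to 9.49 in high regeneration and 9.02 to 9.30 in low regeneration. Without low 3 and low 4, 6 general macrophage genes were higher and 0 lower, and without high 4, low 2 and low 4 there were 0 calls in this list.

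Taken relative to this list mean within each array, Retnla lay at -4.93 to -3.98 in the high arrays and -3.62 to -0.52 in the low arrays. Mrc1 lay 0.22 to 1.01 above the mean in the high arrays and 1.35 to 1.72 above it in the low arrays, and Cd163 at -3.03 to -2.70 and -2.42 to -0.85. Chi3l3 lay at -4.44 to -4.15 in the high arrays and -3.84 to -3.24 in the low arrays. The list mean was itself higher in every high array, so a gene that does not differ is shifted down in the high arrays on this scale. All high arrays lay below all low arrays for these 4 of the 7 genes and for 29.4% of all genes, and above for 0 of the 7 and for 0.632% of all genes. Chi3l3 overlapped between the groups before the subtraction. Arg1, Il4ra and Msr1 overlapped between the groups on this scale as well.

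Among genes of resident skin and tissue macrophages, 5 of 17 measured were lower in high regeneration, 1 was higher and 11 were not called. Over all genes 2.47% were called lower and 1.86% higher. The list's median difference was -0.36. With the muscle list mean as a covariate 1 gene of this list was called, lower. Pf4, a chemokine that tissue macrophages express, had 8.41, 8.63, 8.03 and 8.03 in the high arrays, against 9.21, 9.09, 9.36 and 8.95 in the low arrays. It fell by 0.88 ± 0.15 (SE; adjusted p = 0.0150). F13a1, a transglutaminase subunit, fell by 0.93 ± 0.17 (adjusted p = 0.0225), Cbr2, a carbonyl reductase, by 0.69 ± 0.12 (adjusted p = 0.0198) and Gas6, a ligand that helps macrophages take up dying cells, by 0.45 ± 0.07 (adjusted p = 0.0110).

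Ednrb, an endothelin receptor, fell by 1.64 ± 0.26 (adjusted p = 0.0127), and melanocytes are known to express it as well. Timd4, a receptor for phosphatidylserine on tissue macrophages, rose by 0.79 ± 0.17 (adjusted p = 0.0393). The calls of F13a1 and Cbr2 were lost without high 3, high 4, low 2 or low 4, and that of Cbr2 also without low 3. Timd4 lost its call without high 1, high 3, low 1, low 2 or low 4, while Pf4, Gas6 and Ednrb were called whichever single array was left out. With low 3 and low 4 both left out, the genes of this list did not pass in limma. The estimates were then -0.88 for Pf4, -0.75 for F13a1, -0.65 for Cbr2, -0.41 for Gas6, -1.31 for Ednrb and 0.86 for Timd4. Why the calls were lost was not tested. The list mean was 8.12 to 8.44 in the high arrays and 8.36 to 9.0 in the low arrays, so the groups overlapped.

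**Figure D3:**
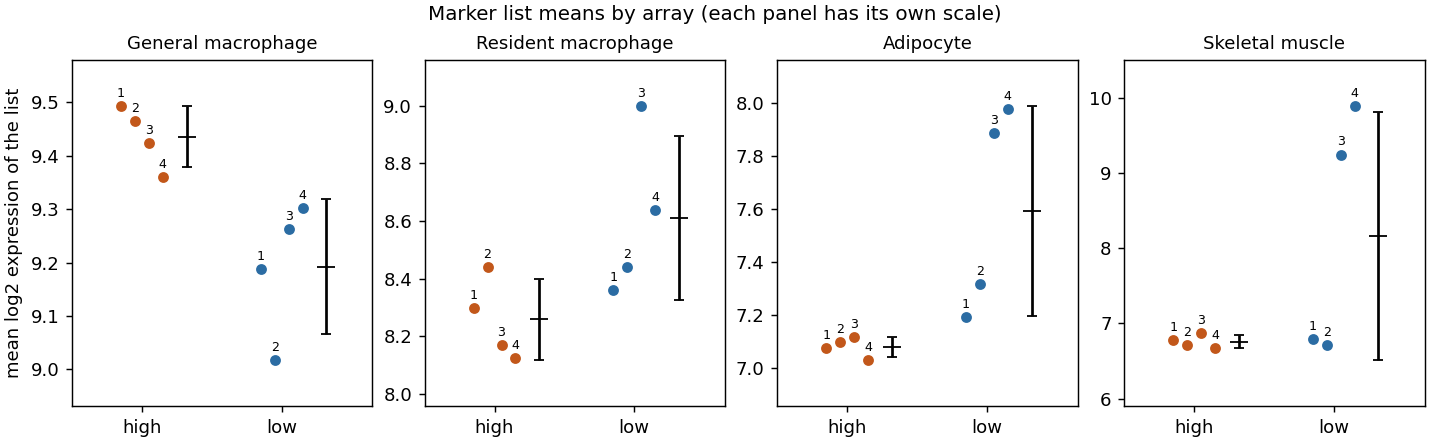
Mean log2 expression of 4 marker lists in each array, high regeneration left and low regeneration right, with the mean ± SD of 4 arrays. The mean of the general macrophage list is higher in every high array than in any low array. Of its 24 genes 16 overlap between the groups, as do 17325 of all 20259 genes. The other 8 are higher in every high array, as are 7.19% of all genes. Low 3 and low 4 stand far above the other 6 arrays for the skeletal muscle and adipocyte lists.

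The array order of Retnla was close to that of the resident macrophage list. Low 3, with 8.74 for Retnla, also had the highest resident list mean (9.0), followed by low 4 (8.64). High 4 and high 3 had the lowest values of both, with high 1 nearly level for Retnla. The adipocyte list mean was 7.08, 7.10, 7.12 and 7.03 in the high arrays, against 7.19, 7.32, 7.89 and 7.98 in the low arrays, so it too was lower in every high array. Low 2, which carried no muscle signal (6.71), had a Retnla value of 6.90, above low 1 and all high arrays. The part of muscle, fat or resident macrophages in the Retnla difference was not tested.

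**Figure D4:**
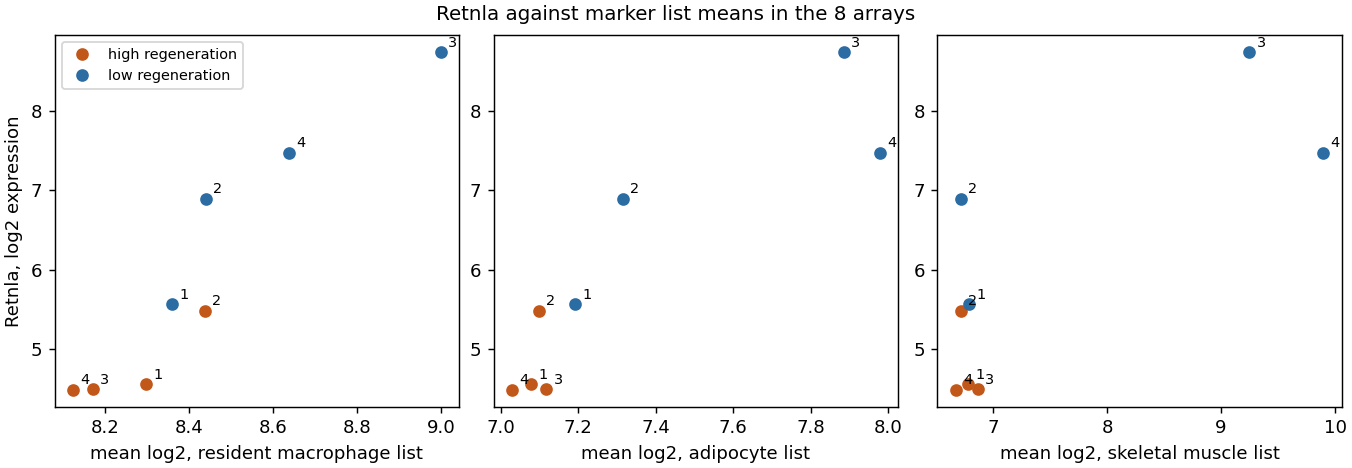
Retnla log2 expression against the mean of the resident macrophage, adipocyte and skeletal muscle lists, a point per array with its label number. Low 3 and low 4 lie at the upper right in all 3 panels, and low 2 has a Retnla value of 6.90 at a muscle list mean of 6.71.

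The genes whose array profile was nearest to that of Retnla were sought by Pearson's r over 8 arrays, among 1090 named genes whose SD within groups was at least 0.3. After subtracting each group's mean, which leaves out the difference between the groups, the nearest were Rpl21-ps12, Zxdb, Uprt, Nsa2-ps2, Vma21, Nup153, Zfp758, Lrrn4cl, Sacm1l and Cd55, with r of 0.93 to 0.99. Without that subtraction they were Efemp1, Cyp2f2, Abca6, Cd55, Pi16, Cd163, Cxcl13, Rfc4, Adipoq and Skint4, with r of 0.93 to 0.97. The second set holds the member Cd163, the fat cell hormone Adipoq, and Pi16 and Efemp1, which fibroblasts are known to express. Only Cd55, a complement regulator, was in both. The arrays are few and share tissue content, so high r values arise readily and are descriptive. For Chi3l3 the 5 nearest after subtraction were Kdm6a, Mrgprx2, Serpina3f, Dab1 and Pon1 (0.90 to 0.95), and without it Dab1, Dmd, Mrgprx2, Inmt and Sult1e1 (0.88 to 0.93).

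Relatives of the members gave mixed values. Retn, the resistin gene that mouse fat cells express, had 6.03, 5.88, 6.09 and 5.85 in the high arrays, against 6.10, 6.33, 7.32 and 7.31 in the low arrays. Its difference of -0.80 ± 0.27 (SE) did not pass (adjusted p = 0.128), and low 3 and low 4 were the highest arrays. Retnlg, which bone marrow and neutrophils express, showed 5.65 to 5.79 in the high arrays and 5.71 to 6.56 in the low arrays, with low 3 and low 4 again the highest. Retnlb lay at 5.25 to 5.54 in the high arrays and 5.18 to 5.56 in the low arrays.

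In low 2, where Retnla was at 6.90, Retn was at 6.33, above the high arrays, and Retnlg at 5.71, within their range. Chil4, a close copy of Chi3l3 that can share its probe signal, lay at 4.11 to 4.38 in the high arrays and 4.43 to 4.86 in the low arrays, a difference of -0.28. The row of Mgl2 alone, a lectin gene chosen here after its values were seen, had 8.25, 8.30, 7.81 and 7.43 in the high arrays, against 8.55, 8.67, 8.74 and 8.44 in the low arrays. Its difference of -0.65 ± 0.18 did not pass (adjusted p = 0.0776).

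**Figure D5:**
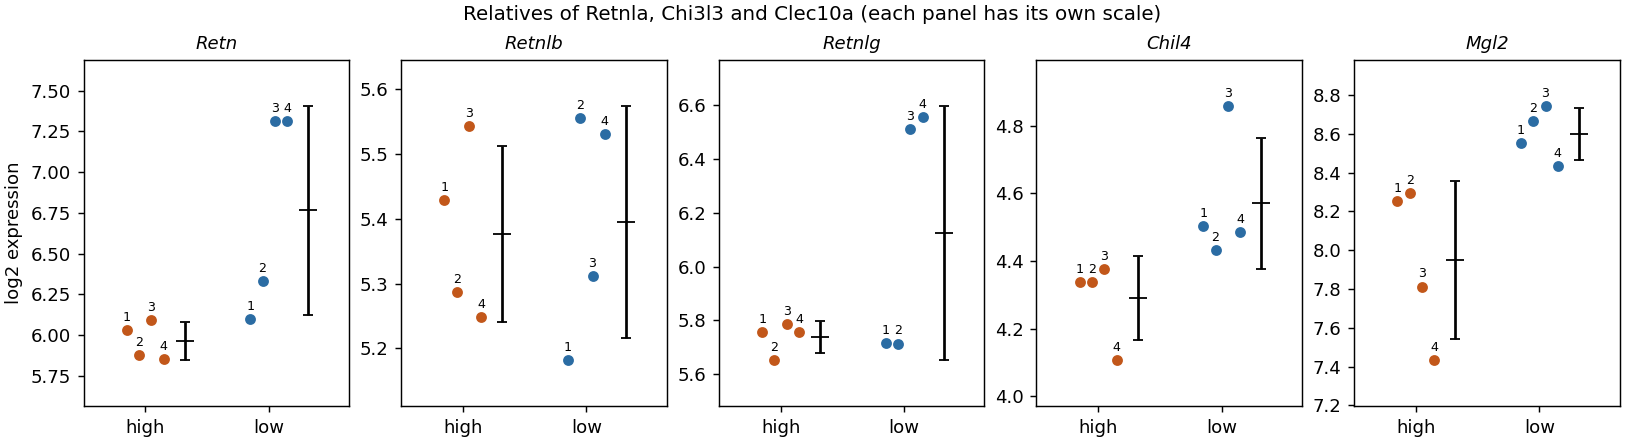
Log2 expression by array of relatives of Retnla (Retn, Retnlb and Retnlg), of Chi3l3 (Chil4) and of Clec10a (Mgl2), high regeneration left and low regeneration right, with the mean ± SD of 4 arrays. Retn and Retnlg are high in low 3 and low 4, and Mgl2 lies at 7.43 to 8.30 in the high arrays and 8.44 to 8.74 in the low arrays.

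Upstream of the members, 27 type 2 cytokines, receptors and signalling genes were measured. Of these 2 were called higher and 0 lower (1.86% and 2.47% over all genes), with a median of 0.11. At an unadjusted p under 0.05 in limma stood 12 of the 27, and 4420 of all 20259 genes. Il13ra1, which pairs with Il4ra to form a receptor for IL-4 and IL-13, had 9.94, 9.98, 9.998 and 9.83 in the high arrays, against 9.42, 9.54, 9.78 and 9.51 in the low arrays. It rose by 0.37 ± 0.09 (SE; adjusted p = 0.0446). Il10ra, the ligand-binding chain of the IL-10 receptor, rose by 0.58 ± 0.09 (adjusted p = 0.0109). Il10ra was called whichever single array was left out, and Il13ra1 lost its call without any single array other than low 3.

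The remaining genes of this paragraph were chosen after their values were seen. Il4 and Il13 themselves differed by 0.16 ± 0.08 and 0.03 ± 0.11 and did not pass. Stat6 differed by 0.20 ± 0.07 (adjusted p = 0.120). Tslp, an epithelial cytokine that promotes type 2 responses, had the widest difference of the list, 1.25 ± 0.35, with 6.63, 7.06, 8.33 and 6.54 in the high arrays and 5.80, 5.66, 6.11 and 5.98 in the low arrays, and did not pass (adjusted p = 0.0772). The Tslp values of the low arrays lay near or below the medians of those arrays. Pparg, a nuclear receptor of fat cells and alternatively activated macrophages, differed by -0.42 ± 0.11 (adjusted p = 0.0601).

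Other genes used as targets of alternative activation had 3 of 28 measured members higher and 0 lower (1.86% and 2.47% over all genes), with a median of -0.19. Called or not, 16 of the 28 differences were negative and 12 positive, against 8672 and 11587 over all genes. The higher ones were Chil1, a chitinase-like protein (0.95 ± 0.17 SE, adjusted p = 0.0176), Plod2, a collagen-modifying enzyme (0.49, adjusted p = 0.0228), and Vegfa, a growth factor for blood vessels (0.40, adjusted p = 0.0405). Chil1 lost its call without high 3 or low 2, Plod2 without high 2, high 3, high 4, low 2 or low 4, and Vegfa without any single array other than high 1 or low 1. All 3 are known from fibroblasts or epithelial cells as well. Every high array lay below every low array for 6 of the 28 genes and above it for 3. Over all genes these shares were 7.29% and 7.19%. At an unadjusted p under 0.05 in limma stood 16 of the 28, and 4420 of all 20259 genes.

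Genes of classical activation, the state induced by interferon-gamma and bacterial products, had 2 of 22 measured members higher and 0 lower, with a median of 0.20. Over all genes 1.86% were called higher and 2.47% lower. Cxcl11, a chemokine that interferon induces, rose by 1.07 ± 0.17 (SE; adjusted p = 0.0127), and Gpr18, a lipid receptor, by 0.42 ± 0.10 (adjusted p = 0.0453). In the low arrays Cxcl11 lay at 5.67 to 5.91, below the medians of those arrays (6.09 to 6.21). Cxcl11 was called whichever single array was left out, and Gpr18 lost its call without any other than low 1. Nos2, the enzyme that competes with Arg1 for arginine and was singled out here after its value was seen, differed by 0.09 ± 0.08 and did not pass. Without low 3 and low 4, 0 genes of this list and 2 each of the type 2 and target lists were called.

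Markers of other immune cells gave few calls. None of 7 eosinophil, 9 mast cell and basophil, 11 neutrophil or 7 dendritic and Langerhans cell genes was called by limma, with 1, 0, 4 and 2 at an unadjusted p under 0.05. Over all 20259 genes 4420 stood at an unadjusted p under 0.05 in limma, with 1.86% called higher and 2.47% lower. Of 9 T and innate lymphoid cell genes Cd4 was higher, at 0.59 ± 0.12 (adjusted p = 0.0264), a call kept only without high 3 or low 1 when single arrays were left out. Of 12 fibroblast genes Thy1 was lower, at -0.58 ± 0.09 (adjusted p = 0.0133). Lists of cells that share members of the set had no calls in limma but many genes at low unadjusted p. The adipocyte list, which bears on Retnla, had 0 of 16 genes called and 10 at an unadjusted p under 0.05, with a median of -0.40. In this list 6 genes were lower in every high array than in any low array, as were 7.29% of all genes. The keratinocyte list, which bears on Arg1, had 0 of 13 genes called and 6 at an unadjusted p under 0.05. The keratinocyte mean was 11.52 to 11.68 in the high arrays and 11.32 to 11.55 in the low arrays, and low 4, the lowest array for Arg1, was also the lowest here.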

How the data were processed

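Gene expression was measured on Affymetrix Exon arrays in wound scar biopsies of 8 mice, 4 per group, grouped by the labels' titles. The authors deposited log2 expression values per transcript cluster in a table of 115830 rows. Per the submitters' processing notes, Affymetrix Expression Console and PLIER were used, while background correction and normalization are not given in those sources. The array medians differed by at most 0.204, so no centring was applied. The number of arrays limits the precision.

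Rows were named through the platform annotation: 25539 rows carry 1 symbol and were used, 2300 carry several and 87991 none. Rows of a gene were averaged, which gave 20259 genes, with no filter on low values. A linear model for high minus low regeneration was fitted with R 4.3.3 and its package limma 3.58.1 (two-sided moderated test), with Benjamini-Hochberg adjustment over all genes and a threshold of 0.05. The fit was tested on simulated data. Promoters are RefSeq windows of GRCm38.p6.

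The members, lists and alternatives were chosen with earlier results of these data known. The text names every member, each called gene of a list, relatives of Retnla and Chi3l3, the markers Adgre1, Cd68 and Csf1r, and the genes nearest to Retnla and Chi3l3 (predicted gene models left out). Genes outside this rule are marked. The alternatives were other normalizations, variance models, a filter, the brightest row, the replicate block, a muscle covariate and leaving out arrays.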

Additional observations from a re-analysis of the deposited data

Results flagged for a closer look

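Values were examined for single arrays far from the other 3 of their group, over 44 combinations of a gene or marker list with a group, and about 1 in 20 would be marked by chance. In all 5 were marked. Retnla in high 2 was at 5.49, above the 4.49 to 4.56 of the other high arrays. Il4ra in high 3 was at 8.82, above the 8.49 to 8.54 of the other high arrays. In high 2 the mean of the neutrophil list was 7.02, below the other high arrays, and the mean of the T and innate lymphoid cell list was 7.29, above them. The mean of the sex-linked transcripts was 7.12 in high 4, the high array with Y-linked signal.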

How the results depend on the processing

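Over the alternatives run, Retnla stayed negative (-2.94 to -1.47), as did Mrc1 (-0.83 to -0.53), Cd163 (-1.28 to -0.31) and Chi3l3 (-0.50 to -0.16), and Arg1 (0.37 to 1.13) and Il4ra (0.03 to 0.30) stayed positive. Msr1 ran from -0.25 to 0.22. The filter at the 25th percentile removed Retnla and Chi3l3. No member was called higher in any setting. The number called lower was 1 with quantile normalization and with a variance trend, and 0 with cyclic loess, median centring, robust eBayes, the filter, the brightest row, the muscle covariate, without low 3 and low 4, and without high 4, low 2 and low 4. It was 0 to 2 when single arrays were left out. Why these counts changed was not tested, except that fewer arrays were used where some were left out.

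Counts of called genes in the lists moved as follows. General macrophage genes numbered 5, with 3 after quantile normalization or cyclic loess, 2 after median centring and 2 to 5 without single arrays. Resident macrophage genes numbered 6, with 1 (lower) under the muscle covariate, 0 without low 3 and low 4 and 3 to 6 without single arrays. Type 2 genes numbered 2, both higher, with 3 under the filter (2 higher, 1 lower), 1 higher and 1 lower after median centring and without low 1, 1 after cyclic loess or with the muscle covariate and 1 to 2 without single arrays. Other targets numbered 3, with 0 under the muscle covariate and 0 to 5 without single arrays (3 higher and 2 lower without low 1). Classical activation genes numbered 2, with 3 with a trend or the filter, 1 after cyclic loess or median centring, 0 under the muscle covariate or without low 3 and low 4, and 1 to 2 without single arrays. Without high 4, low 2 and low 4 all 5 lists had 0. Among named genes, Il10ra, Siglec1 and Ms4a6c passed in 17 of 19 alternatives, Gas6, Pf4 and Cxcl11 in 16, Ednrb in 15, Chil1 in 14, F13a1 in 11, Cbr2 and Plod2 in 10, Cd4 and Vegfa in 9, Timd4, Il13ra1, Cd300a and Ctss in 7, Gpr18 in 6, Laptm5 in 5 and Thy1 in 18, and no estimate of these genes changed sign.

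Over all genes, 376 were higher and 500 lower. These were 212 and 593 after median centring, 118 and 223 with the muscle covariate, 127 and 198 without low 3 and low 4, 5 and 10 without high 4, low 2 and low 4, and from 129 and 163 (without high 3) to 536 and 669 (without low 1) when single arrays were left out. With the replicate block they were 105 and 134, with 0 members called lower and 0 general macrophage, 1 resident macrophage (lower), 0 type 2, 1 target (lower, so none of the 3 higher ones) and 1 classical activation gene (higher) called. The labels do not say that a number is shared between the groups, and deviations of same-numbered arrays correlated at -0.26 to 0.02, so the numbers were not taken as pairs. Levels near or below the array medians are limited by background. These include Retnla in the high arrays and low 1, and Chi3l3, Chil4, Retnlb and Il4 in all arrays. They also include Retnlg outside low 3 and low 4, Retn in the high arrays and low 1, and Cxcl11 and Tslp in the low arrays.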
